A study of Mus musculus with 2 samples.

Results

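The Slc25 genes encode the mitochondrial carrier family, small proteins of the inner mitochondrial membrane that exchange metabolites, nucleotides and cofactors between the cytosol and the matrix. The family was taken as every annotated gene named Slc25a followed by a number, with all classes of transcript model counted. Of the 47 genes of that name in the annotation, 39 had at least 1 read, out of 14514 nuclear genes read in the series. RNA was measured by long-read sequencing of cDNA from heart tissue of the B6CASTF1/J strain (males at 2 months of age), with 2 µg of RNA as input to each library. B6CASTF1/J is an F1 hybrid strain, so each autosomal gene is present as alleles of both parental strains. The files do not tell reads of these alleles apart. Males carry a single X chromosome, so genes on it, Slc25a5 among them, are present as 1 allele. The series holds 1 group of 2 libraries, replicate 1 and replicate 2, with no treatment and no second tissue. The biosample labels give the replicates different animal numbers, whereas the library descriptions name the same animal for both and both point to the same donor record, so it is not certain that they are separate animals. Every difference described here is therefore a difference between 2 libraries, and p-values measure counting error between them only.

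Carriers share a fold of repeated membrane-spanning segments and differ in what they bind. In heart muscle the ADP/ATP carriers export ATP made by oxidative phosphorylation, the phosphate carrier brings in the phosphate used to make it, and the oxoglutarate/malate and aspartate/glutamate carriers form the malate-aspartate shuttle, which moves reducing equivalents into the matrix. The carnitine/acylcarnitine carrier admits long-chain fatty acids for oxidation, the main fuel of the adult heart.

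Replicate 1 held 454069 reads and replicate 2 held 661958, of which 430251 and 629896 fell on annotated nuclear genes. Levels are given in CPM, the reads of a gene per 1000000 nuclear gene reads, and 1 read is worth 2.32 CPM in replicate 1 and 1.59 CPM in replicate 2. A gene with 0 reads could still have a level of up to 6.97 or 4.76 CPM (3 reads). Slc25 genes received 10772 and 17432 reads on 193 and 231 transcript models, which is 2.50% and 2.77% of nuclear gene reads. Cardiomyocyte markers (6 genes, among them Myh6 and Tnnc1) summed to 52118 and 44787 CPM. Myh6 was the higher in replicate 1 (36490 and 27652 CPM), whereas the other 5, Actc1, Tnnc1, Tnni3, Ryr2 and Pln, were each higher in replicate 2, the direction of Slc25a4. Tnni3 differed little (632 and 638 CPM), Ryr2 had only 50 and 80 reads, and no test of these markers is reported. Of 5 genes listed for liver and skeletal muscle, Alb, Myh4 and Myh1 had 0 reads in both libraries, Apoa1 had 1 and 0, and Acta1, the skeletal actin, had 180 and 203 (418 and 322 CPM). Red-cell markers (7 genes, 6 of them read) summed to 13859 CPM in replicate 1 and 3712 CPM in replicate 2. Adipocyte markers (6 genes, 5 of them read) summed to 62.8 and 156 CPM. Most of the adipocyte sum was Car3 alone (48.8 and 129 CPM). Cfd had 4 and 11 reads, Adipoq, Retn and Plin1 had 0 to 2 in each library, and Lep had 0. The part of adipocytes in the carrier levels was not tested, and values with red-cell genes left out of the totals are given beside the comparison of the libraries. In whole tissue, fewer cells of a type and less RNA per cell cannot be told apart.

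Of the 39 genes, 37 were read in both libraries and 38 in each. Slc25a27, also called Ucp4, had 1 read in replicate 1 only, and Slc25a24, a calcium-regulated ATP-Mg/phosphate carrier, had 1 read in replicate 2 only. A mean of at least 100 CPM was reached by 8 genes, 20 lay from 10 to under 100 CPM, and 11 were above 0 and under 10 CPM. The 8 genes with no read were Slc25a2, Slc25a18, Slc25a21, Slc25a31, Slc25a41, Slc25a43, Slc25a48 and Slc25a54. Among these, Slc25a31 is the ADP/ATP carrier of testis and Slc25a2 and Slc25a18 are an ornithine and a glutamate carrier. The summed level was 25037 CPM in replicate 1 and 27674 CPM in replicate 2, a mean of 26355 ± 1865 CPM (SD, n = 2).

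**Figure D1:**
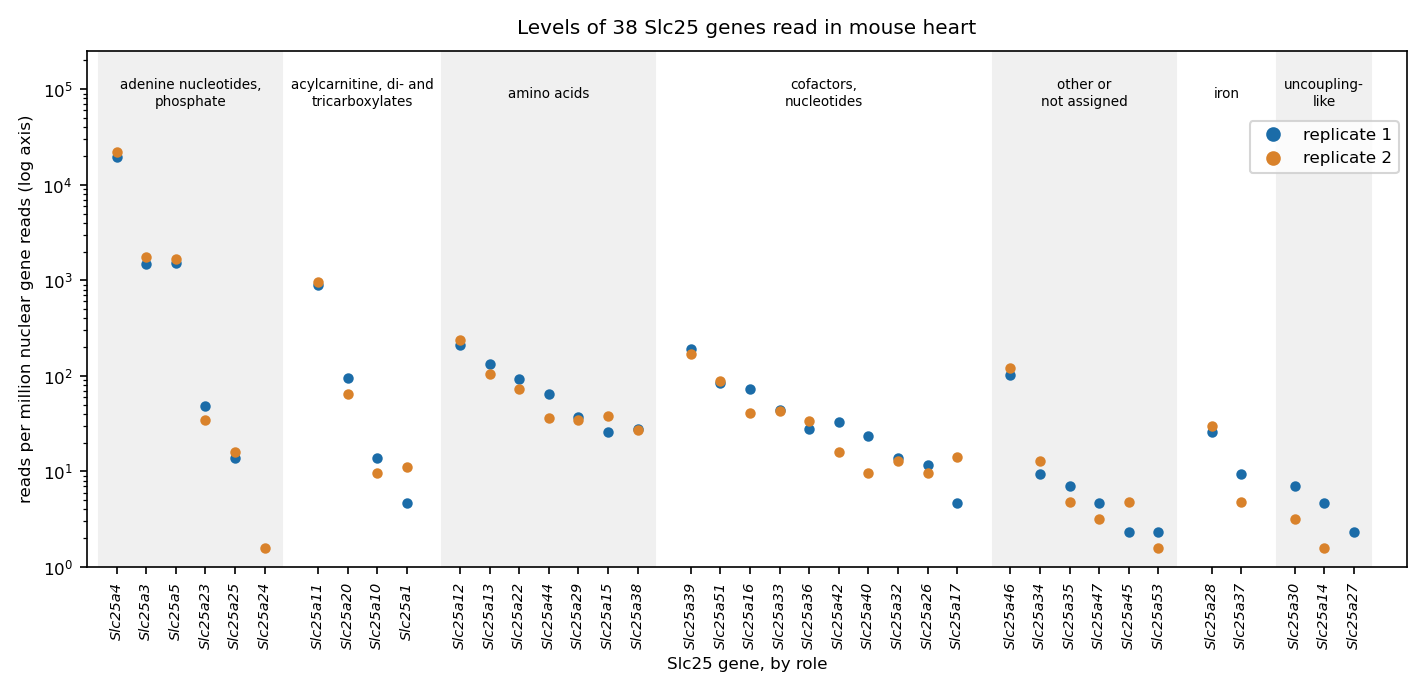
Level of 38 of the 39 Slc25 genes read, in CPM on a log axis, grouped by role, with 1 point per library (blue, replicate 1; orange, replicate 2; a library with 0 reads has no point). Slc25a4 lies at about 20797 CPM on average, above every other member, and the family runs down to genes with single reads.

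Adenine nucleotide and phosphate carriers (8 genes, 6 of them read) held 90.7% of the family's reads in replicate 1 and 91.8% in replicate 2. Slc25a4 (Ant1, the ADP/ATP carrier of heart and muscle; mm10 chromosome 8, 46206797 to 46211284, minus strand) had 8453 and 13824 reads, or 19647 and 21947 CPM. It ranked 2 among all nuclear genes and took 78.5% and 79.3% of all Slc25 reads. Slc25a3, the phosphate carrier (chromosome 10, 91116574 to 91124059, minus strand), had 635 and 1110 reads, or 1476 and 1762 CPM. Slc25a5 (Ant2, the ADP/ATP carrier of most tissues; chromosome X, 36795651 to 36798807, plus strand) had 655 and 1041 reads, or 1522 and 1653 CPM. Over known transcripts only, Slc25a5 was lower, at a mean of 782 CPM of known reads. Slc25a4 stood far above the others in both libraries, whereas the values of Slc25a3 and Slc25a5 overlapped and their order changed between the libraries. The calcium-regulated ATP-Mg/phosphate carriers were low: Slc25a23 was at 48.8 and 34.9 CPM, Slc25a25 at 13.9 and 15.9 CPM, and Slc25a24 at 0 and 1.59 CPM.

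The coding sequences of Slc25a4 and Slc25a5 are 894 bases each and identical at 692 aligned positions (77.4%). The untranslated parts were not compared. They are shown over the run of 3 ATG codons that belongs to the signature motif of ADP/ATP carriers, in GENCODE M21 coding sequence, 5′ to 3′, with ATGATGATG in capitals. Each window runs over 1 splice junction, so the coordinates span an intron. The windows are identical at 73 of 90 bases.
Slc25a4-201, chr8:46207604-46208470, minus strand: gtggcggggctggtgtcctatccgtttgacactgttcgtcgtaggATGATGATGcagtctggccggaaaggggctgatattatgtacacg
Slc25a5-201, chrX:36797804-36798403, plus strand: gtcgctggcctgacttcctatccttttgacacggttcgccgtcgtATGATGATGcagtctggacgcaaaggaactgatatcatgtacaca
The search covered genes whose most-read known transcript has a coding sequence, read on the coding strand and in frame. ATGATGATG was present in 3 of 35 such Slc25 genes, namely Slc25a4, Slc25a5 and the mitoferrin Slc25a37. It was present in 68 of 10515 such genes of all kinds (0.647%). The run was chosen as that of the ADP/ATP carriers, so its presence in Slc25a4 and Slc25a5 was fixed beforehand.

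Slc25a4 made up 92.8% of the reads of the Slc25a4 and Slc25a5 pair in replicate 1 (exact binomial 95% interval 92.3 to 93.3%) and 93.0% in replicate 2 (92.6 to 93.4%). The intervals overlap, and a difference in this share between the libraries was not tested. Among known transcripts alone the share was 96.1% and 96.2%. The intervals of the 2 ways of counting did not overlap. Known reads are part of all reads, so this is no test of a difference. Reads assigned to models of 1 exon were 62.1% and 62.0% of Slc25a5 reads (407 and 645 reads), against 26.6% and 28.6% of Slc25a4 reads (2252 and 3959 reads). The annotation holds 7 processed pseudogenes at least 90% identical to Slc25a5 over at least 300 bases, and all 7 had 0 reads in both libraries. The sources used here do not say how reads that match several such copies were placed, and the level of Slc25a5 is uncertain to that extent.

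The single-exon reads of these genes were listed in different classes. TALON, the program named in the deposited annotation, sorts models into Known, ISM (an incomplete run of known splice junctions), NIC (new combinations of known splice sites), NNC (at least 1 unannotated splice site) and Genomic (reads overlapping a gene that match none of these). For Slc25a4, 2252 of 2302 and 3959 of 4044 ISM reads belonged to 1 model made of the 3′-most exon alone, 824 bases long. For Slc25a5 the single-exon reads were Genomic, on a model that starts at position 36798553, in the last exon. That model is listed with a length of 255 bases in replicate 1 and 1 base in replicate 2, so listed model lengths are not read lengths.

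**Figure D2:**
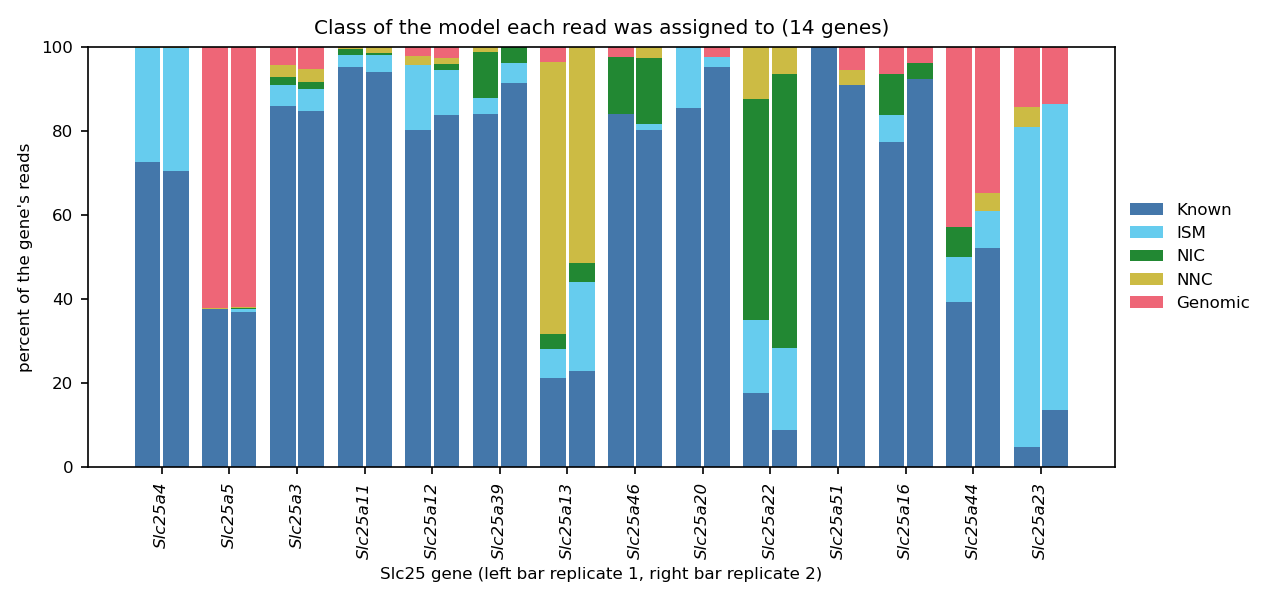
Percent of reads assigned to each model class, for 14 of the 15 Slc25 genes that had 20 or more reads in both libraries, with replicate 1 as the left bar and replicate 2 as the right bar of each gene. Slc25a5 is mostly Genomic (62.1% and 62.0%), Slc25a13 mostly NNC, Slc25a22 mostly NIC and Slc25a23 mostly ISM, and each pattern is seen in both libraries.

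Slc25a3 carries a pair of mutually exclusive coding exons, and nearly all of its heart reads had the same one. The exon of transcript Slc25a3-206 (chr10:91122207-91122331, minus strand) was present in 577 of the 587 reads with exactly 1 of the exons in replicate 1, or 98.3% (exact binomial 95% interval 96.9 to 99.2%). In replicate 2 it was in 980 of 1000, or 98.0% (96.9 to 98.8%). The alternative exon, of transcript Slc25a3-201 (chr10:91121922-91122043), had 10 and 20 reads, and 1 read in replicate 1 held both. The form with the first exon is known as the heart and skeletal muscle form of the phosphate carrier. The exons are printed below from GENCODE M21, with the bases that differ in their alignment in capitals, since they are what sets the transcripts apart. They match in 77 of 125 aligned columns (61.6%).
Exon of Slc25a3-206, 125 bases: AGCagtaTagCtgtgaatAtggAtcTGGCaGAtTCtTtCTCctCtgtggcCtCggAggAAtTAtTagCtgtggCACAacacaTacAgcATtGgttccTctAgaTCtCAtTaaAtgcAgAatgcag
Exon of Slc25a3-201, 122 bases: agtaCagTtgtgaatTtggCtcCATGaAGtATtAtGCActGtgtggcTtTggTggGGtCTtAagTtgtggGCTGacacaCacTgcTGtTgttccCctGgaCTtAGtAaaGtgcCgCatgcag

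The transcript Slc25a3-206 held 96.7% and 96.0% of known Slc25a3 reads, Slc25a3-201 held 1.47% and 2.02%, and Slc25a3-204, which starts within the gene, held 1.47% and 1.91%. Small shifts were seen at the first junction of Slc25a3, which joins exon 1 to exon 2 just before the start codon. The annotated junction had 545 and 938 reads. A donor 4 bases further downstream had 6 and 11 reads with the annotated acceptor and 7 and 14 reads with an acceptor 3 bases downstream. These forms were rare, and the same intron chains were present in both libraries. At the acceptor of the Slc25a3-206 exon, a shift of 2 bases downstream had 2 reads in replicate 1 and 5 in replicate 2, and a shift of 5 bases had 3 and 2.

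**Figure D3:**
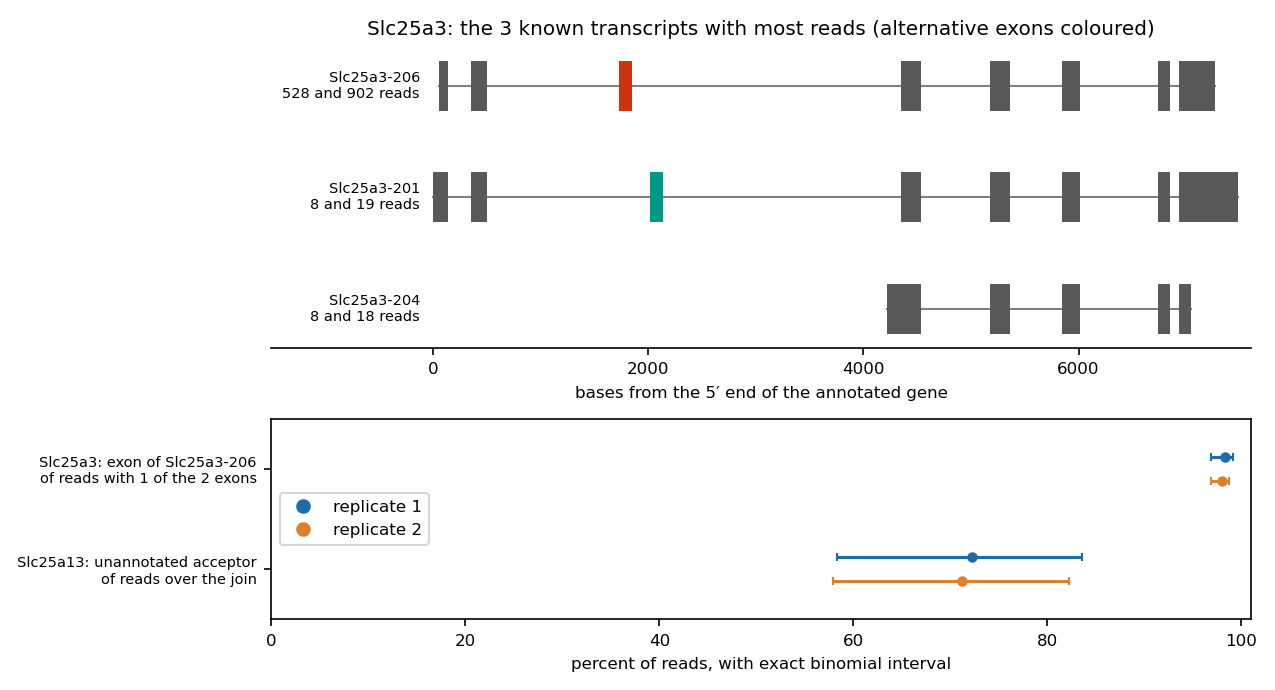
Top, exons of the 3 known Slc25a3 transcripts with most reads, in bases from the 5′ end of the annotated gene, with the mutually exclusive exons in red and green and the reads of replicates 1 and 2 at the left. Bottom, the share of Slc25a3 reads with the exon of Slc25a3-206 (98.3% and 98.0%) and of Slc25a13 reads that use an unannotated acceptor (72.2% and 71.2%), with exact binomial 95% intervals.

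Carriers of acylcarnitines, dicarboxylates and tricarboxylates (5 genes, 4 of them read) summed to 999 and 1040 CPM. Slc25a11, the 2-oxoglutarate/malate carrier of the malate-aspartate shuttle, supplied most of this with 381 and 601 reads, or 886 and 954 CPM (mean 920 ± 48.5, SD, n = 2). It was the fourth member by level and did not overlap its neighbours on either side. Slc25a20, the carnitine/acylcarnitine carrier, had 41 reads in each library, or 95.3 and 65.1 CPM, and overlapped Slc25a22 and Slc25a51. Slc25a10, the dicarboxylate carrier, had 6 reads in each library, and Slc25a1, the citrate carrier, had 2 and 7. Slc25a11 thus made up 98.4% and 99.0% of the reads of the Slc25a11 and Slc25a10 pair. The gene Rnf167 lies on the opposite strand over Slc25a11 and had 16 and 39 reads, few beside those of Slc25a11. Whether the authors' assignment used strand in every read is not given in the sources used here.

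Amino acid carriers (9 genes, 7 of them read) summed to 593 and 551 CPM. The aspartate/glutamate carriers of the malate-aspartate shuttle, both regulated by calcium, led this group. Slc25a12 (aralar) had 91 and 149 reads, or 212 and 237 CPM, and Slc25a13 (citrin) had 57 and 66 reads, or 132 and 105 CPM. Slc25a12 was the higher of the pair in both libraries, at 61.5% of the pair's reads in replicate 1 (exact binomial 95% interval 53.1 to 69.4%) and 69.3% in replicate 2 (62.7 to 75.4%). Counted over known transcripts alone, its share was 85.9% and 89.3%. Only 12 of 57 and 15 of 66 Slc25a13 reads were known, and its mean level over known transcripts was 34.2 CPM.

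Most Slc25a13 reads used a splice acceptor that is not annotated. The annotated intron before exon 10 of 18 (chromosome 6, 6110025 to 6113937, minus strand) was used by 15 and 17 reads. An intron whose acceptor lies 3 bases downstream (6110022 to 6113937) was used by 39 and 42 reads, which is 72.2% of both in replicate 1 (exact binomial 95% interval 58.4 to 83.5%) and 71.2% in replicate 2 (57.9 to 82.2%). The full-length model with this junction and 17 introns had 33 and 32 reads. The join lies within the coding sequence, and the 3 bases left out, CAG, begin at coding base 934, the first base of a codon, so the reading frame is kept. Both joins are printed from GENCODE M21 coding sequence, with the bases left out in capitals in the annotated join.
Annotated join of Slc25a13-201: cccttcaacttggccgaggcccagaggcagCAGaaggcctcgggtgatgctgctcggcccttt
Unannotated join: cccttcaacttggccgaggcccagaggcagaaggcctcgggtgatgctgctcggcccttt
The exon upstream also ends in CAG, so a read without these bases has the same letters whichever copy is taken to be missing. The part of the parental alleles in this split was not tested.

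Slc25a22, a glutamate carrier, had 40 and 46 reads, or 93.0 and 73.0 CPM, and only 7 and 4 of them matched a known transcript. Its leading form was a NIC model with 9 introns, at 14 and 21 reads. Its first intron (chromosome 7, 141434330 to 141435287, minus strand) is annotated only in the transcripts Slc25a22-205, Slc25a22-209 and Slc25a22-219, and had 21 and 24 reads. The first intron of Slc25a22-201 (141434330 to 141437568) had 4 and 5 reads. Both end at the same acceptor, 154 bases before the start codon of Slc25a22-201, so the choice concerns the first exon, upstream of that codon. An unannotated intron that skips 1 exon (141433637 to 141434155) had 5 and 8 reads, against 24 and 32 for the annotated intron with the same acceptor. The related glutamate carrier Slc25a18 had 0 reads in both libraries.

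The remaining amino acid carriers were low. Slc25a44, the branched-chain amino acid carrier, had 28 and 23 reads, Slc25a29, a basic amino acid carrier, 16 and 22, Slc25a38, the glycine carrier, 12 and 17, and Slc25a15, the ornithine carrier, 11 and 24. In Slc25a44, singled out after its values were seen, 12 and 8 reads were single-exon Genomic, and the first exon varied: 8 and 6 reads had the first intron of Slc25a44-201, 4 and 5 that of Slc25a44-204, and 2 and 2 that of Slc25a44-203. In Slc25a15, 2 and 5 reads had a first-intron donor 482 bases downstream of the annotated one, which had 8 and 18 reads. That join lies before the start codon.

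Cofactor and nucleotide carriers (11 genes, all 11 read) summed to 560 and 483 CPM. Slc25a39, a glutathione carrier, led with 82 and 106 reads, or 191 and 168 CPM, and was sixth in the family. Its relative Slc25a40 had 10 and 6 reads, and Slc25a39 made up 89.1% and 94.6% of the pair. Slc25a51, the NAD carrier, had 36 and 55 reads, or 83.7 and 87.3 CPM. The coenzyme A transport genes Slc25a16 and Slc25a42 had 31 and 26 and 14 and 10 reads, so that Slc25a42 made up 31.1% and 27.8% of their pair. The pyrimidine nucleotide carriers Slc25a33 and Slc25a36 had 19 and 27 and 12 and 21 reads, and the exact binomial 95% intervals of Slc25a36's share of the pair (38.7% and 43.8%) include equal shares in both libraries. The other members of the group, Slc25a32, Slc25a26 and the peroxisomal carrier Slc25a17, had 2 to 9 reads in a library. Slc25a26 lies opposite Lrig1, which had 12 and 10 reads.

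Iron carriers were low in both libraries. Mitoferrin 2 (Slc25a28) had 11 and 19 reads and mitoferrin 1 (Slc25a37), the form of developing red cells, had 4 and 3. Slc25a37 was thus at 9.30 and 4.76 CPM where red-cell markers summed to 13859 and 3712 CPM. The uncoupling-like genes Slc25a30, Slc25a14 and Slc25a27 had 0 to 3 reads in each library. Among carriers whose substrate is not assigned here, Slc25a46, an outer membrane member on chromosome 18, had 44 and 76 reads, or 102 and 121 CPM, and overlapped Slc25a13 in level. The others read, Slc25a34, Slc25a35, Slc25a45, Slc25a47 and Slc25a53, had 1 to 8 reads.

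The 4 highest genes, Slc25a4, Slc25a3, Slc25a5 and Slc25a11, held 94.0% and 95.1% of the family's reads, and the remaining read genes shared 1506 and 1359 CPM. From the ninth gene downward every gene overlapped the next in level. Each long read stands for 1 cDNA, so these CPM levels are not divided by transcript length. Divided by the length of each gene's most-read known transcript, Slc25a4 stayed first at 10803 CPM per kilobase and Slc25a11 kept rank 4 at 538, but Slc25a5 at 1280 came above Slc25a3 at 1207. On that scale Slc25a12, with a transcript of 6351 bases, moved from rank 5 to rank 9, at 35.3 CPM per kilobase, below Slc25a13 at 38.7. These values per kilobase are means of the 2 libraries, and in the mean the order of these aspartate/glutamate carriers thus reversed. The reversal held in replicate 1 but not in replicate 2. There Slc25a12 at 237 CPM over 6351 bases stayed above Slc25a13 at 105 CPM over 3067 bases. Their order on the scale per length is therefore not settled. Ranks on this scale also depend on the transcript chosen as divisor. Slc25a23, at 70.0 CPM per kilobase and rank 6, was divided by the 598 bases of Slc25a23-206, which had 3 known reads. Most reads of Slc25a23 fell on ISM models instead. Slc25a22 was given no value per length. Any loss of long cDNAs in library preparation was not tested.

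Related transport genes outside the family name gave context. The pyruvate carrier subunits Mpc1 and Mpc2 were at 472 and 530 CPM and at 518 and 551 CPM, between Slc25a11 and Slc25a12. The uncoupling proteins Ucp2 and Ucp3, which are Slc25 family members by sequence under other names, were at 41.8 and 44.5 CPM and at 34.9 and 33.3 CPM. Ucp1, the uncoupling protein of brown fat, had 0 and 6 reads, where adipocyte markers summed to 62.8 and 156 CPM, mostly from Car3. The outer membrane homologues Mtch1 and Mtch2 were at 430 and 381 CPM and at 167 and 200 CPM. Of the 12 such genes, 8 had enough reads to test and none passed in the exact binomial test between the libraries (0 also at an unadjusted p under 0.05).

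**Figure D4:**
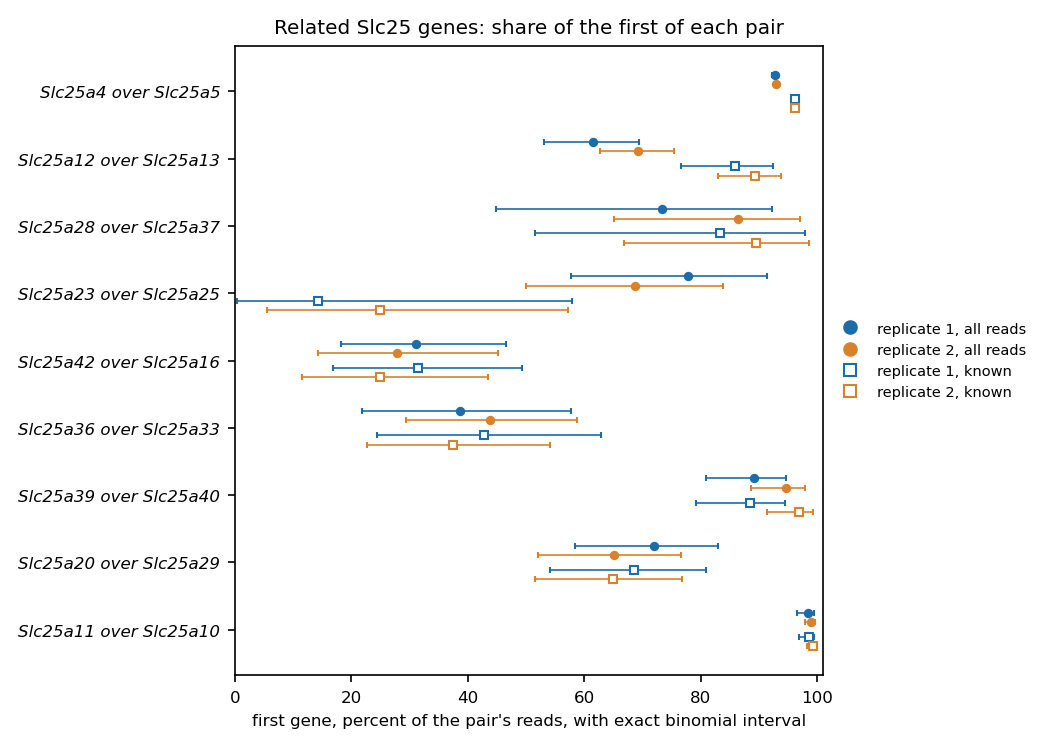
Share of the first gene of 9 related Slc25 pairs, in percent of the pair's reads, with exact binomial 95% intervals, for replicate 1 (blue) and replicate 2 (orange), over all reads (filled circles) and over known transcripts only (open squares). Slc25a12 over Slc25a13 is higher over known transcripts (85.9% and 89.3%) than over all reads (61.5% and 69.3%), and the leading gene of the Slc25a23 and Slc25a25 pair changes with the way of counting.

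The pair of Slc25a23 and Slc25a25 depended most on which reads were counted. Slc25a23 made up 77.8% and 68.8% of all reads of the pair but 14.3% and 25.0% of the known ones, where the intervals were wide (0.361 to 57.9% and 5.49 to 57.2%). Most Slc25a23 reads, 16 of 21 and 14 of 22, belonged to 1 ISM model of 9 exons that ends at position 57047051 on chromosome 17, an end annotated only for the short transcript Slc25a23-206. The last intron of Slc25a23-201, further downstream, had 0 and 2 reads. Slc25a25 had 6 and 9 known reads, split between Slc25a25-203 (2 and 6) and Slc25a25-205 (4 and 3). Slc25a40 was similarly split between Slc25a40-201 (6 and 1) and Slc25a40-202 (3 and 2). With so few reads no isoform order could be read from these genes.

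Levels in the 2 libraries were compared for each nuclear gene with at least 10 summed reads by an exact two-sided binomial test with Benjamini-Hochberg adjustment. Of 29 Slc25 genes tested, 2 had an adjusted p under 0.05, beside 0.693% of all 8086 genes tested, and none also differed at least 2-fold, beside 0.322%. An unadjusted p under 0.05 was given by 4 of the 29, beside 7.11%. Both genes that passed were lower in replicate 1, and 0.346% of all genes passed in each direction. For Slc25a4 the log2 ratio of replicate 1 to replicate 2 was -0.16 (ratio 0.895, exact 95% interval 0.871 to 0.920, adjusted p = 5.8e-13), a change well under 2-fold in a gene with 22277 summed reads. Red-cell markers were higher in replicate 1, and with those 7 genes left out of the totals the log2 ratio of Slc25a4 was -0.14 (adjusted p = 1.6e-10). For Slc25a3 the log2 ratio was -0.26 (ratio 0.838, 0.759 to 0.924, adjusted p = 0.0488), and the adjusted p missed 0.05 without a read minimum (adjusted p = 0.0876), without Genomic models (0.0677), over known transcripts only (0.204) and with totals without red-cell markers (0.0945). The log2 ratio in these settings was -0.26, -0.25, -0.24 and -0.24, about as large as in the main comparison. Slc25a5 was at -0.12 (adjusted p = 0.81). The 2 other genes with an unadjusted p under 0.05, Slc25a16 (log2 0.80) and Slc25a44 (0.83), were higher in replicate 1 and did not pass the adjustment. Over all 29, 13 were lower in replicate 1 (beside 49% of all genes tested), and the median log2 ratio was 0.06, beside 0.01.

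**Figure D5:**
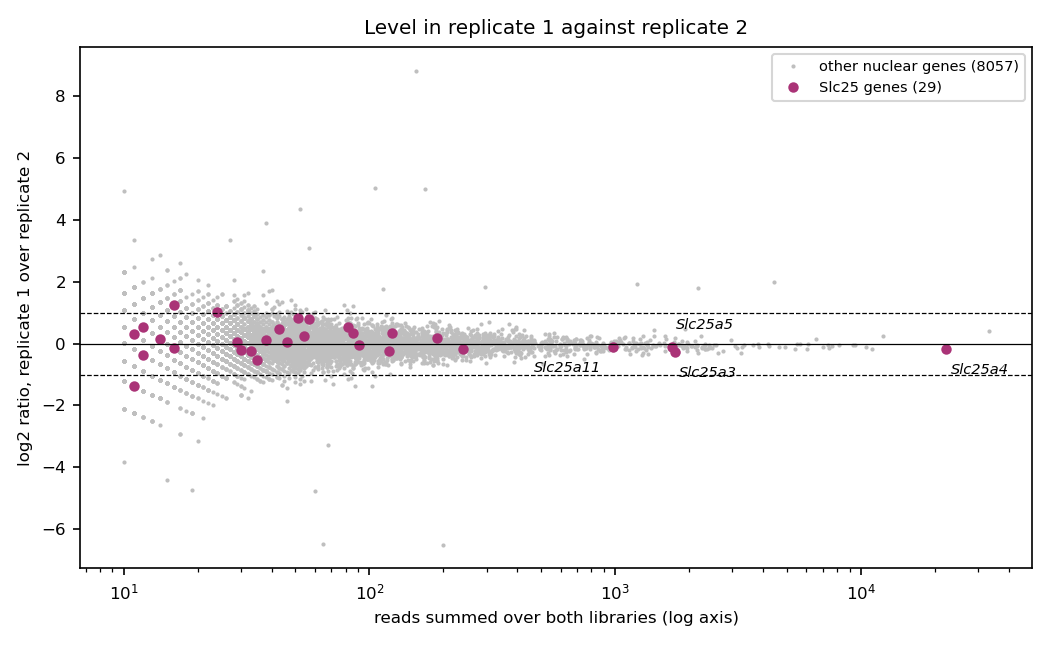
Log2 ratio of the level in replicate 1 to that in replicate 2 against reads summed over both libraries (log axis), for other nuclear genes (grey) and 29 Slc25 genes (purple), with dashed lines at a 2-fold difference. The 4 named Slc25 genes with most reads lie between -0.26 and -0.11, and the widely spread Slc25 points are those with few reads.

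The share of reads on known transcripts did not pass the test between the libraries in any Slc25 gene. Of 15 Slc25 genes with 20 or more reads in both libraries, 0 were called by Fisher's exact test with Benjamini-Hochberg adjustment and a difference of at least 10 percentage points, as for all 3318 genes tested (0%, or 0.0904% at an adjusted p under 0.05 alone). Slc25a4 alone had an unadjusted p under 0.05, beside 3.47% of all genes, with 72.6% of its reads known in replicate 1 and 70.4% in replicate 2 (Fisher's exact p = 0.00075, adjusted p = 0.50). Over both libraries the known share ran from a mean of 9.20% in Slc25a23 to 95.5% in Slc25a51, with a median of 82.1% over the 15 genes and 84.5% over all 3318. It was under 50% in 5 of the 15 (33.3%), namely Slc25a5, Slc25a13, Slc25a22, Slc25a23 and Slc25a44, and in 16.4% of all genes. For isoform use, only Slc25a3 had enough reads, and none of its 3 transcripts was called, beside 0.158% of the 1267 transcripts tested (0 of the 3 at an unadjusted p under 0.05, beside 4.58%). With ISM models added to the test, the split of Slc25a4 between its full transcript (72.7% and 70.7%) and the last-exon model (26.7% and 28.7%) had adjusted p = 0.0239 and 0.0244 by Fisher's exact test, a difference under the 10 points needed for a call.

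Of the 39 genes, 36 had a read on a known transcript, 24 of them on a single one, and 54 of the 241 transcripts annotated for the read genes were seen. Unannotated spliced models (NIC and NNC) of Slc25 genes had 171 and 233 reads in 152 distinct intron chains, of which 38 (25.0%) were found in both libraries with every splice site the same, beside 5489 of 34213 (16.0%) for all genes. The shared chains held 66.7% and 70.0% of these reads, beside 66.1% and 64.2% for all genes. At least 5 summed reads were reached by 14 of the 38, in Slc25a3, Slc25a4, Slc25a13, Slc25a15, Slc25a22 and Slc25a39. In Slc25a4, 3 of the 5 such chains were shifts of 4 or 6 bases. The most read, an acceptor 6 bases downstream, had 4 and 11 reads against 6140 and 9753 for the annotated one, or 0.0651% and 0.113%. Of the remaining chains of Slc25a4, one had an unannotated intron from 46208473 to 46210997 (3 and 5 reads). It leaves out exon 2 and the adjoining parts of both neighbouring exons, so neither of its ends is at the annotated site. The other had an unannotated intron of 70 bases inside exon 2 (46209207 to 46209276, 2 and 5 reads). The shared chain of Slc25a39, with 11 introns, all of them annotated, had 2 and 3 reads. Among NNC reads of Slc25 genes, 67.6% and 65.8% had every unannotated site within 6 bases of an annotated one, beside 32.7% and 32.5% for all genes, and the 3-base acceptor of Slc25a13 made up much of that share.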

How the data were processed

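The deposited files give, for each library, read counts per transcript model (whole reads, at least 1 per listed model), made by the authors from reads aligned to mm10 and compared with GENCODE M21, per the deposited text files; the deposited models name TALON as their source. Aligner, versions and filters are not given in the sources used here. The members and gene lists were chosen with earlier results of these data known. Counts were summed per gene and divided by nuclear gene reads (430251 and 629896). Spike-ins, mitochondrial genes and unannotated loci stayed out of these totals. Exact tests and exact (Clopper-Pearson) 95% intervals used SciPy 1.17.1; intervals and the floor of 3 reads cover counting error only. With 1 group there is no contrast for a replicated model, so edgeR 4.0.16 and DESeq2 1.42.0 supplied only scaling factors. The values of 1 gene are not reported here, although it enters the family counts. The tests were checked on counts simulated with counting error only, with large changes set in genes with many reads. Their behaviour under other variation between libraries, and their recovery of changes in genes with few reads, were not checked. Named individually were genes of at least 100 CPM, genes with an adjusted p under 0.05, members of related pairs, genes with a second known isoform of at least 20% of known reads in both libraries, genes with a shared unannotated chain of at least 5 summed reads, and related carriers. Sequences come from GENCODE M21 transcripts (mm10), aligned with Biopython 1.88; near-identical copies were found with BLAST 2.17.0. Alternatives changed read classes, filters, totals, fold and matching of splice sites.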

Additional observations from a re-analysis of the deposited data

How the results depend on the processing

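No paired analysis was possible because the series has 1 group. Settings with models of at least 2 exons or totals without red-cell markers were chosen after seeing the data. The summed Slc25 level was 26355 CPM, with an SD of the libraries of 1865 CPM. It moved by more than 1 SD only with models of at least 2 exons (21458 CPM). It was 24733 CPM over known transcripts and 27898 CPM with models of at least 2 reads. Leaving out either replicate returns the level of the other (25037 or 27674 CPM). With 2 libraries that value always lies within 1 SD of the mean, so it does not check the level. The Slc25a4 share of the Slc25a4 and Slc25a5 pair (92.9%) was 96.2% over known transcripts and 96.1% over models of at least 2 exons. Fewer single-exon reads enter these counts by construction. The libraries taken singly gave 92.8% and 93.0%. No Slc25 gene was called at 2-fold under any setting of the gene-level test, nor at 1.5-fold. The number of Slc25 genes with an adjusted p under 0.05 (2) was 1 without a read minimum, over known transcripts, without Genomic models and with totals without red-cell markers, since the adjusted p of Slc25a3 rose above 0.05 while its log2 ratio stayed at -0.26 to -0.24; it was 4 with spike-in totals. Spike-in totals move the median log2 ratio of all genes from 0.01 to -0.26, so Slc25a4 at -0.43, Slc25a3 at -0.52 and Slc25a5 at -0.39 (adjusted p = 6.5e-06) lay below that median, as did Slc25a11, the other gene that passed. Genes called over the whole table (26) numbered 15 over known transcripts and 70 with spike-in totals. Known-share calls (0) numbered 19 without Genomic models, and isoform calls (2) numbered 92 with ISM models added; none was in an Slc25 gene, although Slc25a4 had adjusted p under 0.05 with ISM models added (0.0239 and 0.0244), and the cause was not tested. Chains of Slc25 genes in both libraries (38) numbered 12 with at least 2 reads in each library, which leaves fewer chains by construction. Without Genomic models Slc25a5 was at 632 CPM, below Slc25a11. Depth limits genes with few reads most: Slc25a16, with 31 and 26 reads, had a ratio of 1.75 with an exact 95% interval of 1.00 to 3.06.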
